A study of Mus musculus with 96 samples.

Results

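These data concern the RING1B ChIP-seq intervals of mouse embryonic stem cells (ESCs) that were called in only one of a pair of peak lists, the empty-vector list (shEV) or the Stat3-knockdown list (shStat3). An interval was shEV-only when it shared no bp with any shStat3 interval, shStat3-only in the reverse case, and shared otherwise. This gave 3657 shEV-only intervals of 14408 in the shEV list and 1406 shStat3-only intervals of 12017 in the shStat3 list, that is 5063 of 26425 intervals in all. The remaining 10751 shEV and 10611 shStat3 intervals were shared. The members were chosen by these lists, so their width, fold enrichment and q value are given as a description, and absence from a list does not show that RING1B was absent.

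Both RING1B libraries came from R1 ESCs, 1 labelled shEV and control and 1 labelled shStat3 and Stat3 knockdown, grown like all ESCs here in medium with 15% FBS and 1000 U/mL LIF. The labels give 1 library a side, although interval names in both lists carry the mark R2, which no label explains. With 1 library a side there is no replicate, nothing between shEV and shStat3 was tested, and the level of Stat3 in the shStat3 cells was not measured in the data used here. Marks were taken from a Rybp-floxed line, R7.15, without deletion of Rybp (Rybp+/+), which is not the line of the RING1B libraries. A further pair of RING1B lists and a pair of STAT3 lists came from R1 cells labelled with a DOX-induced Rybp_Stat3 integration, without (DOX-) and with (DOX+) doxycycline, 1 list per condition. RNA-seq of shEV and shRybp R1 ESCs (empty vector and knockdown of Rybp) and of the rTRS line, which has the same integration label, without (NTC) and with DOX, had 2 libraries per group. Nothing in the labels says that these were separate cultures, so p-values measure the spread between libraries.

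RING1B is the E3 ligase of Polycomb repressive complex 1 (PRC1) and places ubiquitin on histone H2A, a mark of repressed developmental genes in ESCs. STAT3 is the transcription factor that LIF activates through JAK kinases, and it keeps mouse ESCs self-renewing by turning on genes such as Klf4 and Tfcp2l1. Socs3, the feedback inhibitor of JAK, is another of its targets. H3K4me3 marks promoters, H3K27ac marks active promoters and enhancers, and WDR5 is a subunit shared by the complexes that methylate H3K4. A promoter with H3K4me3 but no H3K27ac is a common state of Polycomb targets in ESCs.

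Sequences of 6 intervals are shown, from among the strongest of each group and among the strongest that hold the STAT-type motif TTCNNNGAA (in capitals; the motif reads the same on both strands). Each is the 300-base window nearest the middle of the interval that overlaps no annotated exon, on the + strand of mm9. The first is shown because it lies directly upstream of the Klf4 transcription start site (TSS) in the strongest shStat3-only interval.
shStat3-only, upstream of Klf4, chr4:55545348-55545647: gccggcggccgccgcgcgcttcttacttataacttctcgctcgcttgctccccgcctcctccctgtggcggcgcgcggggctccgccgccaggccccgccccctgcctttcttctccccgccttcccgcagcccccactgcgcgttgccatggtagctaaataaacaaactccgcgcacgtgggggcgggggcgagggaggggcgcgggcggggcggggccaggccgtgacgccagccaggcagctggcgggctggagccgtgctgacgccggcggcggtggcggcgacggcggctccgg
shStat3-only, intergenic, nearest gene Calcoco1, chr15:102525023-102525322: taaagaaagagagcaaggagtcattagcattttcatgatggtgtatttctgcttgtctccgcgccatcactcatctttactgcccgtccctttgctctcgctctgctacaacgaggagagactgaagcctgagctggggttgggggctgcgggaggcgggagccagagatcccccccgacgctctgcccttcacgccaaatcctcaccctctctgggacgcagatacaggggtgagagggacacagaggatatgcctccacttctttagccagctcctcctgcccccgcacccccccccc
shStat3-only with motif, intergenic, nearest gene Racgap1, chr15:99484077-99484376: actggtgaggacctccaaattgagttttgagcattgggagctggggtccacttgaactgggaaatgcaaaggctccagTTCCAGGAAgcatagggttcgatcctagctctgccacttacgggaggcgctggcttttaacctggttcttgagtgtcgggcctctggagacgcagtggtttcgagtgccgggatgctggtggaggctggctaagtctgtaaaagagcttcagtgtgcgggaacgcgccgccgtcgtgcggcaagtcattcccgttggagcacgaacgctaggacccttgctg
shEV-only, interval over the Rab3d TSS, chr9:21722166-21722465: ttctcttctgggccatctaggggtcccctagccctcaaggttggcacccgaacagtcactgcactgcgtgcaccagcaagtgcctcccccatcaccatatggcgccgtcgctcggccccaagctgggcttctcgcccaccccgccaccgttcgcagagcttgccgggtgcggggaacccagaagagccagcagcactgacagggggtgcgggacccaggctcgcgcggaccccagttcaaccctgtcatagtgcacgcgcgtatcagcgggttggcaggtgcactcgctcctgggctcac
shEV-only, intron, nearest TSS Msrb3, chr10:120306461-120306760: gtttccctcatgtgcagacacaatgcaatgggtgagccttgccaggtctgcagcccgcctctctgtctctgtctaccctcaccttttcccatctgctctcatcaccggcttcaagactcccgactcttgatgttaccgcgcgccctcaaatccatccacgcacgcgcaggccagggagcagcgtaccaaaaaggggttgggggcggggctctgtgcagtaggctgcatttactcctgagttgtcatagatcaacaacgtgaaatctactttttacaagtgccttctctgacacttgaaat
shEV-only with motif, interval over the Klhdc8b TSS, chr9:108354709-108355008: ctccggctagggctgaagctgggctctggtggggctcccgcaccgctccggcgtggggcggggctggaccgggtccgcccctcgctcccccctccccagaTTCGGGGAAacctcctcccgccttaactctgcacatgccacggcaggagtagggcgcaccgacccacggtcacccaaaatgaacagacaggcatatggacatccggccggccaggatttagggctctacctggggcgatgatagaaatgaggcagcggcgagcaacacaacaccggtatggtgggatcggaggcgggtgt

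The Klf4 window held 75.7% GC and 42 CpGs and no TTCNNNGAA. The Calcoco1 window held 58.7% GC and 12 CpGs, and its interval lay 14899 bp from the nearest TSS and overlapped neither H3K4me3 nor H3K27ac. The Racgap1 window, of an interval 1769 bp from that gene's TSS, held the motif as TTCCAGGAA. The Rab3d window held 66.3% GC and 21 CpGs, the Msrb3 window 53.7% and 12, and the Klhdc8b window 66.0% and 23, with the motif as TTCGGGGAA. Over all members, 300-bp windows at the middle of the interval had a median GC of 60% in shEV-only, 61.7% in shStat3-only and 66.0% in the shared intervals of either list. The median ratio of observed to expected CpG was 0.561, 0.650, 0.768 and 0.769 in the same order, against 0.598 in 22367 windows of that length centred on the TSS of protein-coding genes. The members were thus poorer in CpG than the shared intervals, and the shEV-only intervals the poorest.

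The intervals of the share of windows with TTCNNNGAA overlapped between the member groups. The motif was found in 221 of the 3657 shEV-only windows (6.04%, 95% Wilson interval 5.32 to 6.86) and in 74 of the 1406 shStat3-only windows (5.26%, 4.21 to 6.56). It was found in 4.41% of the shared shEV windows, 4.26% of the shared shStat3 windows and 7.44% of the promoter windows. Over whole intervals the density was 0.214 motifs per kb in shEV-only, 0.203 in shStat3-only, 0.228 in shared shEV and 0.232 in shared shStat3 intervals. All intervals of shares here and below cover counting error only, and no match in a window says nothing of STAT3 binding.

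The shEV-only intervals were 25.4% of the shEV list (95% Wilson interval 24.7 to 26.1) and the shStat3-only intervals 11.7% of the shStat3 list (11.1 to 12.3), a ratio of numbers of 2.6. The lists differ in length, and the excess was not seen at equal length. When the 12017 intervals of highest −log10 q of each list were compared, 2159 were shEV-only (18.0%) and 2246 shStat3-only (18.7%). By length the members were a small part of RING1B. The shEV-only intervals covered 2.04 Mb, 9.87% of the 20.7 Mb of the shEV list, and the shStat3-only intervals 0.759 Mb, 3.89% of 19.5 Mb. The shStat3 list held 83.4% of the number of shEV intervals but 94.3% of their length.

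The members were narrow and weak. Their median width was 469 bp in shEV-only (quartiles 356 and 672) and 440 bp in shStat3-only (343 and 630), against 1117 and 1060 bp in the shared intervals of the shEV and shStat3 lists. Of the shEV-only intervals 266 (7.27%) were over 1000 bp, of the shStat3-only 89 (6.33%), and of the shared 55.8% and 52.5%. The widest was 2935 bp in shEV-only and 4274 bp in shStat3-only, while shared intervals reached 86395 and 87076 bp. Fold enrichment, the signal over background that the peak caller gave, had a median of 3.70 in both member groups and of 5.82 and 5.89 in the shared intervals. The −log10 q was under 2 in 23.2% of shEV-only and 22.0% of shStat3-only intervals, against 3.8% and 3.65% of the shared ones.

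The share of members fell steeply with fold enrichment in both lists. Each list was divided into 10 bins of equal number by fold enrichment. In the lowest bin of the shEV list 51.3% of the intervals were shEV-only, in the sixth 18.8%, in the eighth 0.416%, and none in the 2 highest. In the shStat3 list the shares were 30.5%, 4.24% and 0.0832% in the same bins, again 0.0832% in the ninth, which is 1 interval of 1202, and 0 in the highest. That interval was the one at Klf4. No shEV-only interval and 2 shStat3-only intervals had a fold enrichment over 10.

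**Figure D1:**
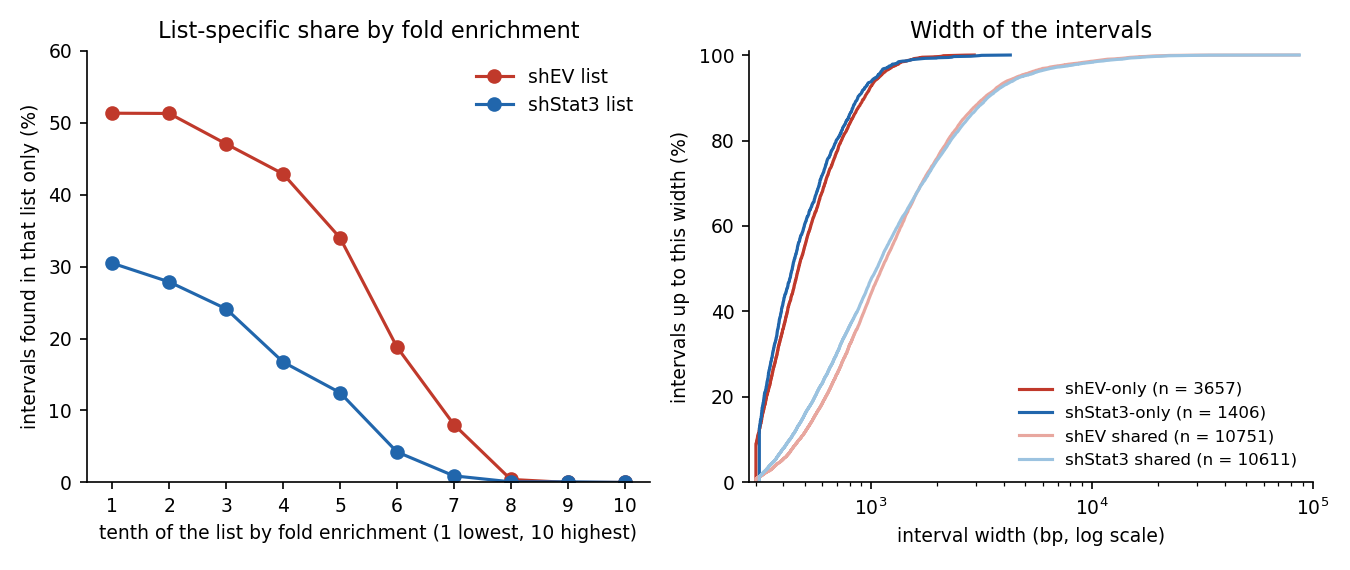
Left, percentage of intervals found in that list only, in 10 bins of equal number of the shEV and shStat3 list from lowest (1) to highest (10) fold enrichment; right, cumulative percentage of intervals up to a given width (bp, log scale) for the member and shared groups. Members made up 51.3% and 30.5% of the lowest bins and none of the highest, and their median widths of 469 and 440 bp lay well left of the shared intervals.

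Few members lay at the edge of the rule. Only 15 shEV-only and 14 shStat3-only intervals had a gap of up to 100 bp to the other list, with median widths of 444 and 420.5 bp and median fold enrichments of 3.28 and 3.91. Just on the other side, 39 shEV and 38 shStat3 intervals were shared by up to 100 bp, with median widths of 425 and 353 bp and fold enrichments of 3.57 and 3.51. The median distance from a member to the other list was 28.1 kb for shEV-only and 23.2 kb for shStat3-only. A shared interval of the same list lay within 10 kb of 835 shEV-only (22.8%) and 369 shStat3-only (26.2%) intervals, so most members had none within that distance.

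Most members carried H3K4me3, but a smaller share than of the shared intervals, and a larger share had neither H3K4me3 nor H3K27ac. H3K4me3 overlapped 81.1% of shEV-only and 80.4% of shStat3-only intervals, against 97.2% and 97.7% of the shared ones. H3K4me3 with H3K27ac was found at 50.7% of shEV-only, 56.3% of shStat3-only, 51.8% of shared shEV and 52.3% of shared shStat3 intervals. H3K4me3 without H3K27ac was found at 30.4% of shEV-only and 24.0% of shStat3-only intervals, against 45.5% of the shared intervals of either list. Neither mark was found at 16.2% and 17.9% of the members, against 2.64% and 2.15% of the shared. H3K27ac without H3K4me3, a pattern of distal enhancers, was found at 2.68% and 1.71% of the members and 0.140% and 0.132% of the shared.

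The shared intervals were wider, and a wide interval overlaps more, so these shares were also taken within width classes. H3K4me3 with H3K27ac differed between members and shared intervals in opposite directions by width. Over all widths the difference was -1.03 points in the shEV list (95% Newcombe interval -2.90 to 0.85) and 4.07 points in the shStat3 list (1.3 to 6.81). Under 500 bp it was found at 48.2% of shEV-only and 61.4% of shared shEV intervals, a difference of -13.2 points (-16.6 to -9.68), and at 52.7% and 63.5% in the shStat3 list, -10.8 points (-14.9 to -6.72). From 500 to 1000 bp it was found at 54.8% of shEV-only and 63.8% of shared shEV intervals, and at 62.6% and 63.3% in the shStat3 list, where the interval of the difference (-5.47 to 3.84 points) includes 0. Over 1000 bp it was found at 48.9% of shEV-only and 42.7% of shared shEV intervals, 6.13 points more (0.05 to 12.2), and at 58.4% and 42.2% in the shStat3 list, 16.2 points more (5.73 to 26.0). Under 500 bp, H3K4me3 without H3K27ac was found at 29.8% of shEV-only and 29.0% of shared shEV intervals, a difference of 0.79 points (-2.45 to 3.98), while in the shStat3 list the shares were 26.3% and 30.3%, a difference of -3.99 points (-7.63 to -0.24). Over 1000 bp the shares were 41.0% of shEV-only and 56.1% of shared shEV intervals, and 15.7% and 56.9% in the shStat3 list, so the gap between members and shared intervals was wider among wide intervals. Neither mark was found at 19.2% of shEV-only and 9.00% of shared shEV intervals under 500 bp, a difference of 10.2 points (7.86 to 12.6), and at 19.7% and 5.68% of the shStat3 intervals, 14.0 points (11.2 to 17.0).

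The member groups also differed from each other. The share with H3K4me3 and H3K27ac was 5.61 points higher in shStat3-only than in shEV-only (95% Newcombe interval 2.54 to 8.64), and the share with H3K4me3 without H3K27ac differed by -6.34 points (-8.98 to -3.61). Over 1000 bp the latter share was 15.7% in shStat3-only (n = 89) and 41.0% in shEV-only (n = 266). In the same width class neither mark was found at 23.6% of shStat3-only and 7.89% of shEV-only intervals, 15.7 points more (7.16 to 25.9). WDR5 overlapped 34.4% of shEV-only and 42.9% of shStat3-only intervals, a difference of 8.49 points (5.49 to 11.5), against 56.4% and 57.0% of the shared. With the same number of top-ranked intervals in each list, H3K4me3 without H3K27ac was found at 31.5% of shEV-only and 23.1% of shStat3-only intervals. These intervals describe 1 library a side, and a difference between the conditions cannot be told apart from one between the libraries.

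Of the RING1B lists that did not enter the rule, DOX- called most of the members and DOX+ fewer, and both called a larger share of the shared intervals. The DOX- RING1B list overlapped 60.1% of shEV-only and 68.1% of shStat3-only intervals, against 97.5% of the shared intervals of either list. The DOX+ list, shorter with 12864 intervals against 17021, overlapped 33.6% and 40.3%, against 91.3% and 91.2%. Both DOX lists called 29.8% of shEV-only, 36.8% of shStat3-only, 90.5% of shared shEV and 90.4% of shared shStat3 intervals. Neither called 36.1% and 28.4% of the members and 1.74% and 1.72% of the shared. Under 500 bp the DOX- share was 53.6% in shEV-only and 64.0% in shStat3-only, 10.4 points higher in the latter (6.49 to 14.3), and between 500 and 1000 bp 7.79 points higher (3.02 to 12.3). Over 1000 bp the shares were 73.3% and 70.8%, and the interval of the difference (-13.8 to 7.61 points) includes 0.

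**Figure D2:**
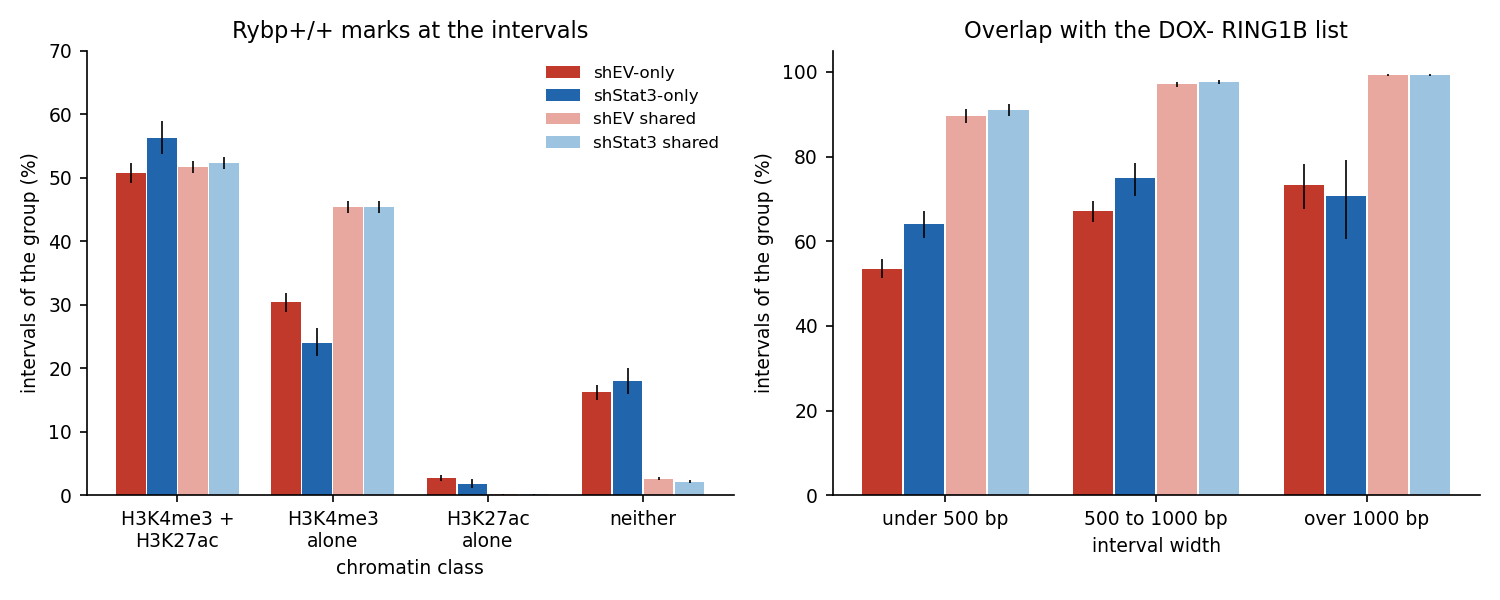
Left, percentage of each interval group in the 4 classes of H3K4me3 and H3K27ac of Rybp+/+ ESCs ("alone" means without the other mark); right, percentage overlapping the DOX- RING1B list by interval width; bars are shares and lines their 95% Wilson intervals. The members had 16.2% and 17.9% with neither mark against 2.64% and 2.15% of the shared, and were in the DOX- list less often in each width class.

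STAT3 peaks were rare at the members. The Rybp+/+ STAT3 list, with 2363 peaks, overlapped 112 shEV-only (3.06%) and 76 shStat3-only (5.41%) intervals, against 12.8% and 12.9% of the shared. The share was 2.34 points higher in shStat3-only than in shEV-only (1.12 to 3.75). Between 500 and 1000 bp it was 9.15% against 3.48%, and under 500 bp 2.83% against 2.29%, where the interval of the difference (-0.64 to 2.01 points) includes 0. In the shared intervals it was 3.86% (shEV) and 5.50% (shStat3) under 500 bp, 8.22% and 8.5% from 500 to 1000 bp and 17.3% and 17.8% over 1000 bp, where the members had 6.77% and 10.1%. From 500 to 1000 bp the difference of shStat3-only from shared shStat3 intervals was 0.65 points (-1.84 to 3.73). Of the members with a STAT3 peak, 96 of the 112 shEV-only and 72 of the 76 shStat3-only carried H3K27ac, and 70 and 53 held a TSS. The motif TTCNNNGAA was in the middle window of 4 and 5 of them. The DOX lists of STAT3 differed greatly in size, with 2816 peaks in DOX- and 30663 in DOX+. They overlapped 4.13% and 64.5% of shEV-only and 7.82% and 67.4% of shStat3-only intervals, against 13.3% and 93.9% of shared shEV and 13.5% and 94.4% of shared shStat3 intervals.

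Fewer members than shared intervals lay at promoters. A TSS of any annotated gene was inside 37.2% of shEV-only and 41.7% of shStat3-only intervals, against 70.4% of the shared intervals of either list. Of the shEV-only intervals 20.1% otherwise touched an exon, 12.9% lay in introns and 29.8% between genes, and of the shStat3-only 20.1%, 11.7% and 26.5%. Among the shared shEV intervals 4.24% were intronic and 12.7% intergenic. Under 500 bp a TSS was inside 32.1% of shEV-only and 48.0% of shared shEV intervals, and 35.8% and 48.9% in the shStat3 list, so the difference remained at like width.

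Of 22380 protein-coding genes, 1284 had a TSS in a shEV-only interval and in no shared one, 545 in a shStat3-only interval and in no shared one, and 10 in both kinds of member. A shared interval held the TSS of 7869 genes, and 12672 genes had none. Developmental regulators, the classical Polycomb targets, were mostly at shared intervals in the lists given here. Among the gene lists, shared intervals held 39 of 39 Hox genes, 74 of 74 other homeobox and paired-box factors, and 45 of 49 FOX, GATA, SOX and TBX factors, and none of these genes was at a member. The lists for primitive streak and mesoderm, primitive endoderm, trophectoderm, formative pluripotency, CDK inhibitors and signalling ligands had no gene at a member either. These lists hold only 7 to 56 annotated genes, and few genes were at members over all protein-coding genes. A count of 0 is therefore not read as a result about a list.

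In the lists given here, the genes at members were few and came from the LIF and STAT3, Polycomb subunit and ribosomal protein lists. Of all 22380 protein-coding genes 1284 were shEV-only and 545 shStat3-only. No list was tested against these counts. Of 31 LIF and STAT3 pathway genes 25 were at shared intervals, 4 at none, 2 at shStat3-only and 0 at shEV-only intervals. The shStat3-only ones were Klf4 and Tfcp2l1, both factors of naive pluripotency downstream of LIF. Of 24 PRC1 genes Cbx6, a chromodomain subunit, was shEV-only and L3mbtl2, of the PRC1.6 variant, shStat3-only. Of 12 PRC2 genes Eed, which binds H3K27me3, was shStat3-only. Of 49 cytosolic ribosomal protein genes 10 were shared, 33 at none, 5 shEV-only (Rplp2, Rpl5, Rpl9, Rpl34 and Rps15) and 1 shStat3-only (Rpl13). Each of these, Klf4 aside, was at a weak interval, with fold enrichments from 2.70 for Tfcp2l1 to 3.78 for Rpl5. The −log10 q at Tfcp2l1 was 1.5, at percentile 0.641 of fold enrichment in the shStat3 list, close to the lower limit of the list.

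Klf4, a zinc finger factor of naive pluripotency and reprogramming, had the strongest and widest shStat3-only interval. It spanned chr4:55542799-55547072 (mm9), 4274 bp, from position -1725 to 2548 relative to the TSS of this minus-strand gene. Its fold enrichment was 22.2 with a −log10 q of 99.6, at percentile 87.0 of the shStat3 list. The shEV list held no interval within 15 kb of the TSS, and its nearest interval was 14789 bp from this one. The interval remained shStat3-only under each of the 5 other rules tried (50% of the own length, 1 kb apart, −log10 q of at least 3, equal number, merging within 1 kb).

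Other lists placed RING1B at Klf4 as well. The DOX- RING1B interval there was 3817 bp wide with a fold enrichment of 5.85, and the DOX+ interval 2760 bp with 3.87. Rybp+/+ ESCs had H3K4me3 (fold enrichment 48.8), H3K27ac (16.4) and WDR5 (8.15) over the TSS and a STAT3 peak of 632 bp between 1561 and 2192 bp downstream (4.25). The STAT3 DOX- list had no peak there, and the DOX+ list had 2, with fold enrichments of 5.91 and 4.50. The interval held 1 TTCNNNGAA, read as TTCTTAGAA at chr4:55544936-55544944, centred 407 bp downstream of the TSS in an exon.

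**Figure D3:**
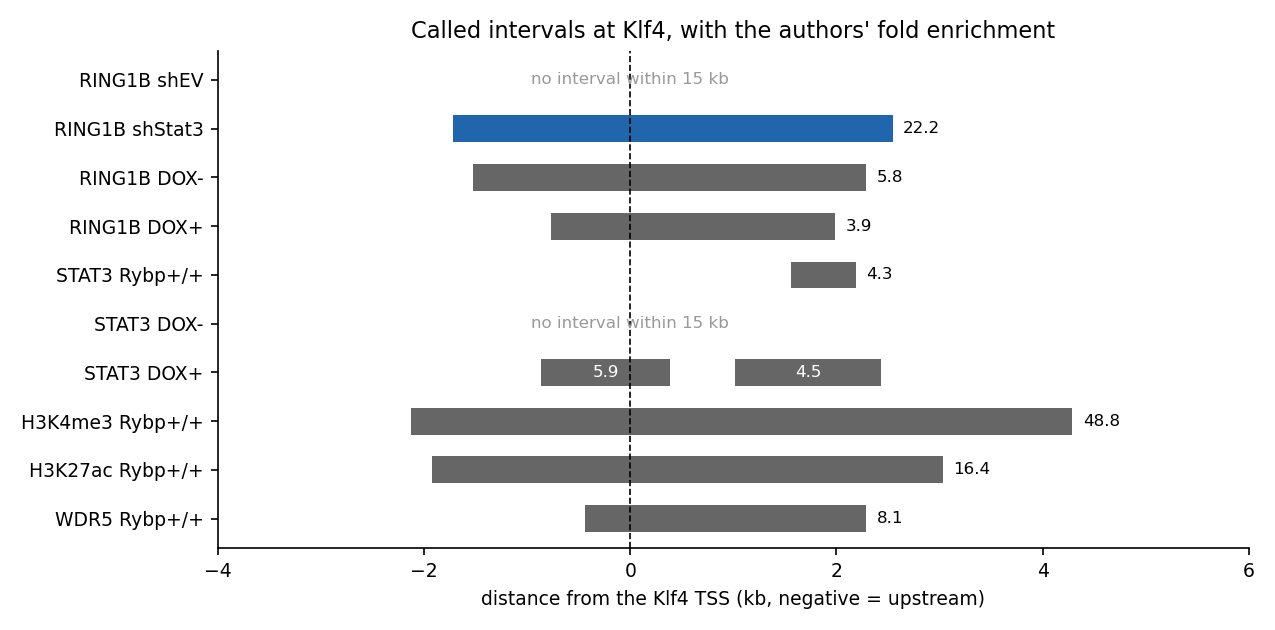
Called intervals of each list at Klf4 by distance from its TSS (kb, negative upstream), with the fold enrichment beside or in each bar; blue is the shStat3-only interval. The shEV RING1B and DOX- STAT3 lists had no interval within 15 kb, while the shStat3 interval had a fold enrichment of 22.2 and the DOX- and DOX+ RING1B intervals 5.85 and 3.87.

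The next strongest shStat3-only intervals at a TSS were much weaker. Pcdhgc5, a gamma-protocadherin of neuronal adhesion, had a fold enrichment of 10.1 over 2377 bp with H3K4me3 but no H3K27ac, 2652 bp from the shEV list. Slc37a2, a sugar-phosphate exchanger, had 8.31. F2rl1, the protease-activated receptor PAR2, had 7.28, Cspg4, the NG2 proteoglycan, 7.02, and Aff1, a scaffold of the super elongation complex, 6.98. Mrpl18, of the mitochondrial ribosome, and Tcp1, of the CCT chaperonin, share 1 interval with 6.96. Commd2, a COMM domain protein, had 6.72, B3gnt5, which starts lacto-series glycolipids, 6.65, and Fam81a 6.59. The widest after Klf4 were at Slitrk1, a neuronal membrane protein (3084 bp), Pcdhgc5, Arid5b, an ARID-domain chromatin factor (2340 bp), and Map3k1, a MAP kinase kinase kinase (2246 bp). Klf4, Arid5b, Map3k1, Commd2 and Fam81a had a Rybp+/+ STAT3 peak, and all of these genes but Cspg4 were also in the DOX- RING1B list.

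Among shEV-only intervals at a TSS no gene stood apart as Klf4 did. The highest fold enrichment was 9.18 at Tcof1, whose product treacle serves rRNA transcription in the nucleolus. It was 7.63 at an interval shared by Sf3a1, of the U2 snRNP, and Ccdc157, 7.45 at 4921504E06Rik, 7.36 at Rab3d, a GTPase of secretory vesicles, and 7.34 at Flywch2. It was 7.23 at Col4a6, a type IV collagen chain, 7.09 at Spata6, of sperm formation, 6.92 at Mapkap1, a subunit of mTORC2, 6.92 at Gnl2, a nucleolar GTPase, and 6.80 at Timm8a1, of mitochondrial protein import. None of these had a Rybp+/+ STAT3 peak, and all but Col4a6 had H3K4me3 with H3K27ac. The 5 widest at a TSS were at Tfap4, a bHLH factor (2655 bp), Ubtf, the upstream binding factor of RNA polymerase I (2436 bp), Ciz1, a nuclear zinc finger protein of DNA replication (2414 bp), Setd1b, an H3K4 methyltransferase (2123 bp), and Hmgb1, an HMG-box protein (2111 bp). All 5 overlapped a Rybp+/+ STAT3 peak and the DOX- RING1B list, and their fold enrichments ran from 2.81 to 5.61.

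Since Klf4 is a target of the LIF pathway, the LIF and STAT3 genes at shared intervals are given beside it, from the same lists and without a test. Across the 7869 genes at shared intervals the median log2 ratio of fold enrichment, shStat3 to shEV, was 0.01, and 50.9% were higher in shStat3. Of the 25 LIF and STAT3 genes 20 were higher in shStat3, with a median of 0.38. Socs3, the feedback inhibitor of JAK, had a fold enrichment of 3.04 in shEV and 30.4 in shStat3, Junb, an AP-1 factor, 3.95 and 10.5, and Bcl3, an NF-κB co-regulator, 3.56 and 8.78. At Socs3 and Bcl3 the shEV value is of an interval that overlaps the shStat3 one but does not hold the TSS. Of the 10 pluripotency factors 8 were higher in shStat3, with a median of 0.09. Dppa3, a maternal factor, had 6.51 and 5.03, and Esrrb, an orphan nuclear receptor, 39.4 and 39.6, while Tbx3, a T-box factor, had 5.47 and 17.8 and Klf2, a relative of Klf4, 3.97 and 8.05. These genes were chosen after their values were seen. Of the 10 formative pluripotency genes 3 were higher in shStat3, among them Etv4, an ETS factor, at 3.19 in shEV and 5.89 in shStat3. Their median was -0.65, with Otx2, a homeobox factor, at 27.1 in shEV and 10.8 in shStat3, Sall2, a zinc finger factor, at 16.6 and 6.81 and the DNA methyltransferase gene Dnmt3b at 13.0 and 6.52. The 39 Hox genes had a median of -0.17, but many of them share an interval, so they are not 39 separate regions. Shared intervals with a Rybp+/+ STAT3 peak (n = 1374) had a median log2 ratio of 0.05 and those without (n = 9377) of 0.01.

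**Figure D4:**
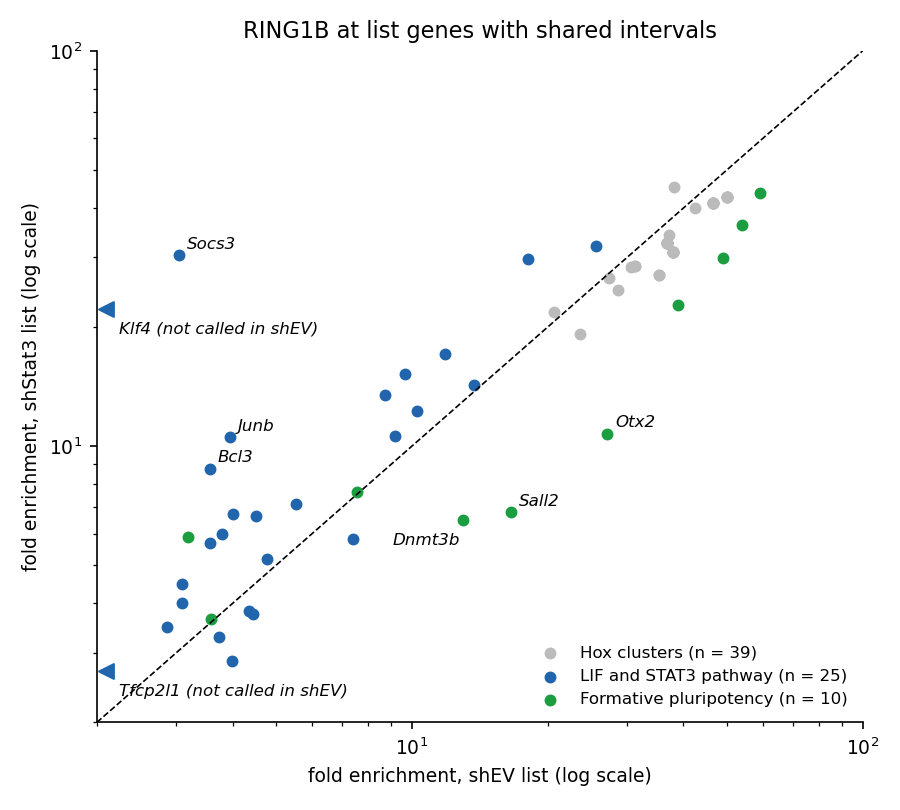
RING1B fold enrichment in the shEV (x) and shStat3 (y) list, both on log scales, at genes of 3 lists with shared intervals; triangles at the left edge mark Klf4 and Tfcp2l1, which had no shEV interval, and the dashed line is equality. Of the 25 LIF and STAT3 genes 20 lay above the line, with Socs3 at 3.04 and 30.4.

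RNA levels were read in the 2 shEV libraries, which come from the line and vector of the control ChIP-seq. The 8 RNA-seq libraries held 38961268 to 53779354 counts on genes. ESC markers were high, at 357 to 1396 TMM-normalized CPM (counts scaled to library size) for each of 7, while the summed level of 5 primitive endoderm markers was 12.8 and 15.5 CPM, of 3 trophectoderm markers 14.6 and 17.5, and of 5 feeder markers 30.8 and 31.1. Fewer cells of a type and less RNA per cell cannot be told apart in such bulk samples. In the check of the targeted gene, Rybp had 85.7 and 86.3 CPM in shEV and 35.8 and 36.5 in shRybp. In the rTRS line Rybp had 113 and 110 CPM in NTC and 102 and 99.5 in the libraries labelled DOX, so it was not higher with DOX, against the label, and Stat3 had 159 and 172 against 191 and 188. The rTRS libraries are therefore named by their label alone. The count column of DOX replicate 2 carries another prefix than the other rTRS columns and was matched by its condition and replicate number, so each DOX value rests on that match.

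Genes at members were among the more highly expressed. The median level, in CPM per kb of gene, was 9.17 and 8.94 in the shEV libraries for genes at shEV-only intervals and 10.2 and 9.86 for those at shStat3-only intervals. It was 2.68 and 2.74 for genes at shared intervals, 0.0521 and 0.0509 for genes without an interval and 0.853 and 0.865 over all protein-coding genes. In the first shEV library 90.7% of the genes at shEV-only and 90.5% at shStat3-only intervals had over 1 CPM, against 76.7% at shared intervals. The level followed the chromatin class. With H3K4me3 and H3K27ac the median was 11.2 and 11.4 CPM per kb at shEV-only (1126 genes) and 12.9 and 13.3 at shStat3-only intervals (476 genes). With H3K4me3 without H3K27ac it was 0.535 and 0.508 (144 genes) and 0.162 and 0.185 (62 genes).

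After Rybp knockdown, more of the genes at members fell than rose. By the quasi-likelihood test of edgeR (Benjamini-Hochberg adjusted p below 0.05), 470 of 1230 tested genes at shEV-only intervals fell (38.2%) and 250 rose (20.3%), against 26.0% lower and 26.8% higher of the 16538 genes tested. The genes at members are all protein-coding, and of the 14817 protein-coding genes tested 28.0% were lower and 28.6% higher. At shStat3-only intervals 195 of 514 fell (37.9%) and 115 rose (22.4%). Genes at shared intervals moved the other way, with 23.5% lower and 38.0% higher, and of the genes without an interval 30.4% were lower. The median log2 fold change was -0.09 at shEV-only, -0.08 at shStat3-only and 0.15 at shared intervals. The middle of the changes was narrow, with quartiles of -0.31 and 0.18 at shEV-only and -0.29 and 0.18 at shStat3-only intervals. The genes at members were also more highly expressed, as given above, and the part of this in the shares was not tested. Genes of other cell states moved in this comparison too, with 10 of 13 trophectoderm genes higher and 1 lower (median log2 change 1.68), 10 of 14 primitive endoderm genes higher and 2 lower (1.04), and 22 of 37 FOX, GATA, SOX and TBX factors higher and 3 lower (1.3). Of 22 pluripotency factors 6 were higher and 10 lower (-0.11). Their part in the changes at members was not tested either. The genes at members passed the filter on low counts in 1230 of 1284 and 514 of 545 cases.

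With DOX in the rTRS line, the shares were nearer to the background. Of 1226 tested genes at shEV-only intervals 272 rose (22.2%) and 310 fell (25.3%), and of 518 at shStat3-only intervals 23.0% rose and 23.7% fell, against 23.0% higher and 20.4% lower of all 16291 genes tested. Of the 14638 protein-coding genes tested 24.9% were higher and 21.6% lower. At shared intervals 32.6% rose and 18.1% fell. The medians were -0.01 and 0.00 at shEV-only and shStat3-only intervals.

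**Figure D5:**
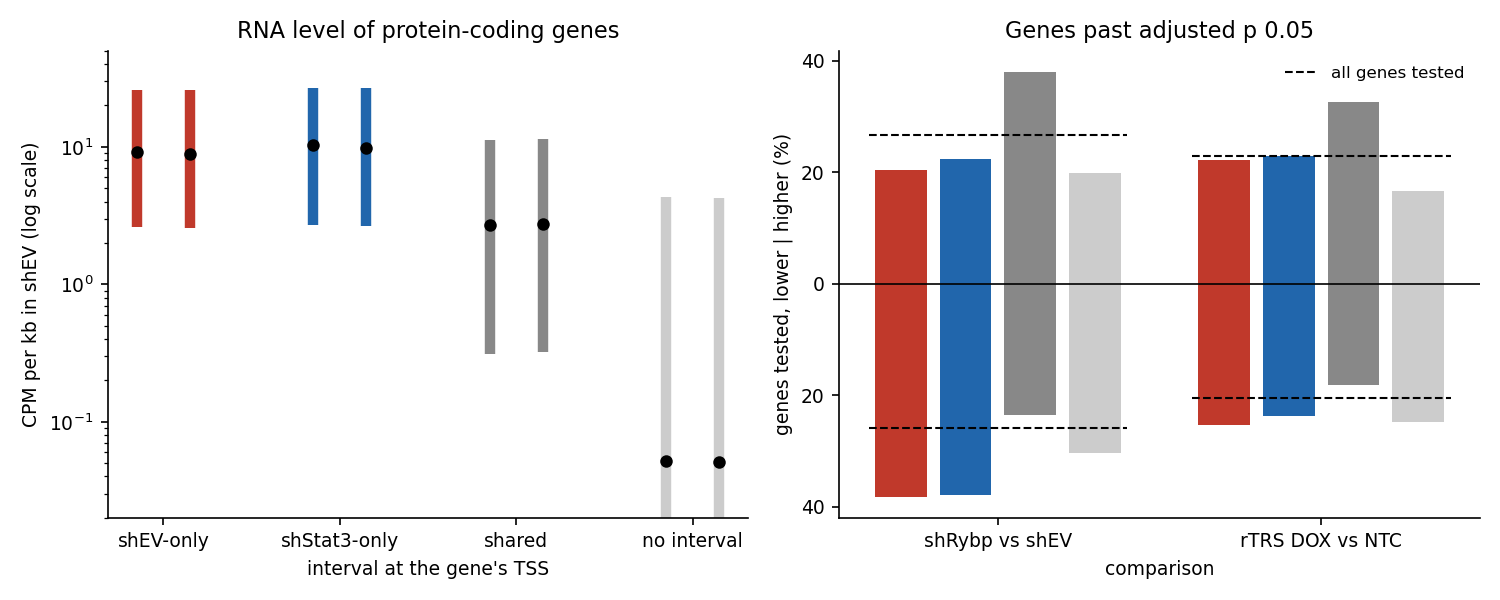
Left, median (point) and quartiles (bar) of the level of protein-coding genes in the first and second shEV library (CPM per kb, log scale), by the interval at the TSS; the lower quartile without an interval is 0 and its bar starts at the axis. Right, percentage of tested genes past adjusted p 0.05, higher above and lower below 0, with bars from left for shEV-only, shStat3-only, shared and no interval; genes at members fell in 38.2% and 37.9% after Rybp knockdown, against 26.0% of all genes (dashed).

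Klf4 RNA was lower in the libraries labelled DOX. Many genes of cell state moved with DOX as well. By edgeR's adjusted p below 0.05, 18 of 22 pluripotency factors fell and 1 rose (median log2 change -0.65), 10 of 12 trophectoderm genes rose and 0 fell (2.18), and 10 of 16 primitive streak and mesoderm genes rose and 1 fell (0.92), against 20.4% lower and 23.0% higher of all genes tested. The part of this in the changes of the genes below was not tested. Klf4 had 203 and 189 CPM in NTC and 95.8 and 84.4 in the libraries labelled DOX, which do not overlap. It fell by 1.12 on the log2 scale (SE 0.07, edgeR adjusted p = 1.128e-07). In shEV it had 357 and 405 CPM and in shRybp 432 and 435, a log2 change of 0.18 (SE 0.05, edgeR adjusted p = 0.0058). That change was small and lost significance without shEV replicate 1 (0.09) or shRybp replicate 2 (0.17). Tfcp2l1 had 563 and 623 CPM in NTC and 463 and 470 with DOX, 574 and 586 in shEV and 344 and 348 in shRybp. It fell in both, with log2 changes of -0.35 (SE 0.06, edgeR adjusted p = 0.00053) and -0.74 (SE 0.04, edgeR adjusted p = 4.446e-11).

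Among the other shStat3-only genes, Arid5b had 65.5 and 69.9 CPM in NTC and 31.1 and 29.4 with DOX, and fell by 1.16 (SE 0.08). B3gnt5 had 14.0 and 16.8 in NTC and 37.5 and 38.3 with DOX, a rise of 1.3 (SE 0.11), and 11.4 and 11.4 in shEV and 20.7 and 18.0 in shRybp, a rise of 0.77 (SE 0.10). The groups did not overlap in either case. Slc37a2 was low, with 2.83 and 3.29 CPM in shEV and 8.99 and 9.10 in shRybp, a rise of 1.57 (SE 0.16), and rose with DOX by 1.09 (SE 0.26). Eed had 310 and 294 in shEV and 199 and 188 in shRybp, and 190 and 174 in NTC and 112 and 111 with DOX, so that it fell by 0.64 (SE 0.05) and 0.71 (SE 0.07). L3mbtl2 fell by 0.27 and 0.46, and Mrpl18 by 0.41 and 0.48. Aff1, Tcp1 and Commd2 fell after Rybp knockdown, by 0.36, 0.41 and 0.42, and Fam81a fell with DOX by 0.48. Cspg4, at 0.405 and 0.272 CPM in shEV, rose after Rybp knockdown to 1.43 and 2.56. F2rl1 rose by 0.62 with DOX and by 0.18 after Rybp knockdown, the latter lost without shEV replicate 1 (0.13), shRybp replicate 1 (0.18) or shRybp replicate 2 (0.18). Map3k1 rose with DOX by 0.27, a call lost without NTC replicate 1 (0.24) or DOX replicate 1 (0.25). Each change in this paragraph passed edgeR's adjusted p of 0.05. Slitrk1 was at or near 0 CPM in all 8 libraries. Pcdhgc5 shares its last exons with the other gamma-protocadherins, so its 113 and 115 CPM in shEV cannot be assigned to it with certainty.

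Among the shEV-only genes, Setd1b had 163 and 200 CPM in shEV and 91.7 and 89.8 in shRybp and fell by 1.00 (SE 0.07). Ubtf had 652 and 635 in shEV and 470 and 484 in shRybp, and 270 and 242 in NTC and 179 and 175 with DOX, so that it fell by 0.43 (SE 0.04) and 0.53 (SE 0.07). Cbx6 had 121 and 118 in shEV and 77.8 and 77.5 in shRybp and fell by 0.62 (SE 0.05). Tcof1, Sf3a1, Tfap4 and Hmgb1 also fell after Rybp knockdown, by 0.37, 0.48, 0.54 and 0.55. Rab3d fell by 0.60 and Gnl2 by 0.14 after Rybp knockdown, the latter lost without shEV replicate 1 (-0.14), shRybp replicate 1 (-0.14) or shRybp replicate 2 (-0.14). Timm8a1 fell in both comparisons, by 0.46 after Rybp knockdown and 0.57 with DOX. Spata6 rose in both, by 0.81 and 0.46, the latter lost without NTC replicate 1 (0.34). Ccdc157 rose by 0.42 after Rybp knockdown, a call lost without shEV replicate 1 (0.27) or shRybp replicate 2 (0.36). Ciz1 rose in both comparisons, by 0.30 after Rybp knockdown and 0.87 with DOX, the former lost without shRybp replicate 2 (0.16). The changes named here passed edgeR's adjusted p of 0.05. Of the ribosomal protein genes at members, Rplp2, Rpl5, Rpl9 and Rpl13 fell after Rybp knockdown by 0.19, 0.28, 0.24 and 0.37. The fall of Rplp2 was lost without shRybp replicate 2 (-0.14). Rps15 rose by 0.16, a call lost without shRybp replicate 1 (0.15), and Rpl34 had a log2 change of -0.04 that missed the threshold. With DOX Rps15 rose by 0.55 and Rpl13 by 0.21, while Rplp2, Rpl5, Rpl9 and Rpl34 missed the threshold. The DOX call for Rpl13 was lost when a library was left out. Over all 49 ribosomal protein genes 37 fell and 2 rose after Rybp knockdown, against 26.0% lower and 26.8% higher of all genes, and 3 fell and 18 rose with DOX, against 20.4% and 23.0%. Many have processed copies elsewhere in the genome that could take part of their reads. Of 30 LIF and STAT3 genes tested 11 rose and 12 fell with DOX, against 23.0% and 20.4% of all genes, and 11 and 9 after Rybp knockdown, against 26.8% and 26.0%.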

How the data were processed

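The authors deposited peak lists on mm9 that hold, per interval, the −log10 q and a fold enrichment, the ratio of ChIP signal to the local background, in MACS2's layout, broad for RING1B and narrow for the rest. The methods read here (Bowtie2, duplicates removed, replicates merged, MACS2 against input) do not describe the RING1B and STAT3 antibodies or the Stat3 knockdown. The lowest −log10 q in the shEV and shStat3 lists were 1.04 and 1.01, so weak intervals were kept. Interval names of the DOX lists carry marks of merged or sampled reads. The read depth behind the peak lists is unknown, and its part in the differences was not tested. The authors also deposited raw read counts per gene (Trim Galore, STAR, HTSeq), of which 22.1 to 26.5% were in rows that name no gene and were left out.

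Intervals were compared by at least 1 bp. Shares have 95% Wilson intervals and their differences Newcombe intervals. Genes came from GENCODE M1 (mm9), with symbols updated from RefSeq synonyms, and sequences from the NCBIM37 genome. Counts were normalized by TMM, filtered with filterByExpr and tested with edgeR 4.0.16 (quasi-likelihood, Benjamini-Hochberg) in R 4.3.3, with DESeq2 1.42.0 as an alternative. On simulated counts for the shRybp comparison, over 16538 genes, 77.9% of genes changed by a log2 fold of 1 and 92.7% of those changed by 2 were recovered, and for rTRS, over 16291 genes, 71.0% and 87.8%. Named genes were those at the 10 strongest and 5 widest intervals of each group that hold a protein-coding TSS, and list genes at members. Genes at shared intervals were chosen after their values were seen. The members, the gene lists and the rules were chosen with earlier results of these data known. No columns of other samples were used, and the columns hold no comparison made by the authors. The result of 1 gene list is not reported here.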

Additional observations from a re-analysis of the deposited data

How the results depend on the processing

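The numbers and shares of members depended on list length and overlap rule, and the cause was not tested beyond the setting itself. With equal numbers of top-ranked intervals, shEV-only and shStat3-only intervals numbered 2159 and 2246 (18.0% and 18.7% of the lists), with median widths of 448 and 480 bp. The shares of the lists were 30.8% and 16.2% when 50% of the own length had to be covered, 24.3% and 10.8% when 1 kb apart counted as shared, and 22.1% and 14.0% at a −log10 q of at least 3. H3K4me3 was found at 76.7% of shEV-only and 77.6% of shStat3-only intervals by the middle of the interval alone, 83.6% and 85.4% with equal numbers, 78.0% of shEV-only under 500 bp, 84.0% of either group from 500 to 1000 bp, and 89.8% and 74.2% over 1000 bp. The DOX- RING1B list held 55% and 63.4% by the middle, 65.2% and 76.3% with equal numbers, 53.6% and 64.0% under 500 bp, 67.1% and 74.9% from 500 to 1000 bp, and 73.3% and 70.8% over 1000 bp. With a log2 fold change beyond 1 required, 1255 genes were higher and 698 lower in rTRS DOX, and 1886 and 202 after Rybp knockdown, against 3739, 3331, 4428 and 4293. Leaving out 1 library at a time gave 3270 to 3547 higher and 2751 to 3040 lower genes in rTRS and 3406 to 4278 and 3535 to 4185 after Rybp knockdown, and DESeq2 gave 3334, 3031, 3512 and 3910. With the replicate number as a block the counts were 4466, 4093, 4627 and 4483. The deviations of same-numbered libraries correlated by 0.201 in rTRS and 0.0306 in the shRybp comparison. With 2 libraries per group this cannot show whether the numbers pair the libraries. No log2 change of a named gene that passed the test turned sign, but the order of shEV-only and shStat3-only did: in number and median width with equal numbers, in H3K4me3 by the middle, with equal numbers and in both width classes up to 1000 bp, and in the DOX- share over 1000 bp. Without one library, calls were lost for Tcof1, Sf3a1, Spata6, Map3k1 and Rpl13 with DOX, and for Ccdc157, Gnl2, Ciz1, Klf4, F2rl1, Rplp2 and Rps15 after Rybp knockdown.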

Other observations

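The Klf4 promoter was also read in the lists of Rybp-/- ESCs of the floxed line, which enter no comparison above and which, unlike the Rybp+/+ cells, were treated with 5 uM 4-OHT for 4 days to delete Rybp. The STAT3 peak there had a fold enrichment of 9.23, at percentile 99.4 of that list, against 4.25 and percentile 47.4 in Rybp+/+, with a second peak of 3.61 upstream of the TSS. H3K4me3 was 40.9 against 48.8, H3K27ac 12.4 against 16.4, and the stronger of the 2 WDR5 peaks 5.41 against 8.15. Each value is from 1 list per genotype and was not tested.

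Members were found on every autosome and on X. The shEV-only share of the shEV list ran from 19.8% on chromosome 18 to 30.8% on chromosome 17, and the shStat3-only share of the shStat3 list from 8.54% on chromosome 12 to 14.7% on chromosome 4, which holds Klf4.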
